A study of Mus musculus with 48 samples.

Results

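Kcnc1, Gadd45g and Zfp703 are 3 genes of mouse embryonic stem cells (ESCs) that were selected on the size of their increase in newly made RNA after loss of the pluripotency factor OCT4. They were chosen by their log2 fold changes of doxycycline over water at 16 and 24 h. Each was found by its symbol, through its Ensembl gene identifier without the version, in all 3 deposited count tables, so the set holds 3 of 54752 listed genes. The doxycycline values that chose the genes are given as a description and carry no test. Loss of FOXD3, which the selection did not use, was tested.

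All 48 libraries come from mouse ESCs in the culture medium that the labels call L2i, and each of the 24 groups holds 2 libraries. RNA was labelled with 4-thiouridine (4SU), a uridine analogue that enters transcripts while they are made, for 30 min in cycling cells and 15 min in synchronized cells. In OCT4-tetOff cells, doxycycline was set against water after 16 and 24 h (8 libraries). A tetOff system is one in which doxycycline switches the controlled gene off. FOXD3-iKO cells, an inducible knockout of Foxd3, received 4-hydroxytamoxifen (4HT) or its solvent ethanol for 8, 14, 24 or 32 h while cycling (16 libraries). The same line was also arrested by a double thymidine block, released 24 h after 4HT or ethanol, and collected 0, 1, 2, 3, 4 or 5 h later (24 libraries). Neither the construction of the 2 lines nor their number of clones is given in the sources used here, and no label calls the replicates separate cultures. The p-values therefore cover only the variation between libraries, which may be technical.

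The genes encode proteins of 3 unlike kinds. Kcnc1 encodes a subunit of a Kv3 voltage-gated potassium channel, best known in fast-firing neurons, where Kv3 channels repolarize the membrane quickly after each action potential. Gadd45g belongs to the small GADD45 family of stress and growth-arrest proteins, which bind cell cycle regulators and activate the kinase MAP3K4 upstream of p38 and JNK. Zfp703 is a zinc finger corepressor of the NET family, whose other mouse member is Zfp503, and it acts with Groucho-type (TLE) corepressors and histone deacetylases. OCT4, encoded by Pou5f1, is a POU factor that holds ESCs in the pluripotent state, and its loss is known to turn ESCs towards a trophectoderm-like fate. FOXD3 is a forkhead factor also expressed in pluripotent cells.

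In mm10 coordinates, Kcnc1 (ENSMUSG00000058975.7) lies on chromosome 7 from 46396497 to 46438704, Gadd45g (ENSMUSG00000021453.2) on chromosome 13 from 51846678 to 51848468, and Zfp703 (ENSMUSG00000085795.8) on chromosome 8 from 26977325 to 26981461, all on the plus strand. The counted intervals run from gene start to gene end, introns included, over 42208, 1791 and 4137 bases. Zfp703 shares 2611 of its bases, 63.1%, with the minus-strand gene Gm45371. The strand setting was not stated. Gm45371 lies wholly inside the Zfp703 interval, yet received counts of its own. Sox2 and Tubb3, wholly inside intervals of genes on their own strand, stood at 0 in every library. Reads of opposite strands were therefore counted apart, and how completely was not tested. Gm45371 itself collected 0 and 1 counts with water and 6 and 20 with doxycycline at 16 h, and 0 and 0 against 11 and 9 at 24 h, a small number beside the counts of Zfp703. It was called higher at both times (edgeR adjusted p = 0.035 and 0.016), with no fold given because its water libraries stood at or near 0. It passed the low-count filter of the fit only through doxycycline libraries, so a rise was the only call open to it.

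Because OCT4 is a POU factor and POU factors bind the octamer ATGCAAAT, the 250 bases before the RefSeq start were searched for this word and 5 common promoter words, on both strands. RefSeq windows (GRCm38.p6) were at hand for Kcnc1 and Gadd45g, 2 of the 3 genes. The Gadd45g window, chr13:51846425-51846674 on the plus strand, is shown because it held the octamer. Of the genes with the largest increases after OCT4 loss, 11 had a window, and Gadd45g was the 1 of these with an octamer. Capitals mark, from left to right, an E box (CACGTG), the octamer as its reverse complement, a CCAAT box and a TATA box (TATAAA).

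Gadd45g: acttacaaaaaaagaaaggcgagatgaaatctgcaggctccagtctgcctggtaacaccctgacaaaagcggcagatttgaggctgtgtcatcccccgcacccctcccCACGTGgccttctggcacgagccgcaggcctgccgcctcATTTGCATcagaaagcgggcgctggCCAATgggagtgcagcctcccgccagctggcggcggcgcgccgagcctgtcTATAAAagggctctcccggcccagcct

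The octamer began 103 bases before the start, the CCAAT box 78 bases and the TATA box 27 bases before it, and no marked words overlapped. Among 32851 windows of the same length, 1.6% held the octamer, 12.4% TATAAA or its reverse complement, 33.8% CCAAT and 6.02% CACGTG. The window held neither the GC box GGGCGG, found in 32.7% of windows, nor the forkhead word TAAACA, found in 12%. The window of Gadd45a held an octamer as well, and that of Gadd45b none. For Kcnc1, the GC box was the single word of the 6 that was present. A match describes the letters of the window and shows no binding.

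Before the 3 genes are described, the targeted genes give a check of the labels. Pou5f1 stood at 4543 and 4109 counts with water and at 1945 and 2039 with doxycycline at 16 h, and at 4983 and 3764 against 1717 and 1252 at 24 h. The log2 changes were -1.50 and -1.83 (SE 0.13 at each time; edgeR adjusted p = 7.3e-05 and 1.1e-05). RNA from a transgene and from the native locus cannot be told apart in these counts. Totals per library were 21113158 to 26112435 in OCT4-tetOff cells, 21827951 to 30406124 in cycling and 7953841 to 17936504 in synchronized FOXD3-iKO cells. The genes Gm26917 and Gm42418, which collect ribosomal RNA reads, took 26 to 43% of the totals in water libraries and 18.1 to 36.9% in doxycycline libraries of the OCT4-tetOff cells. Levels below are in CPM, that is, counts scaled to a common library size, after TMM scaling of library sizes unless stated otherwise.

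Kcnc1 had the largest increase of the 3 by 24 h. Its counts were 15 and 13 with water and 235 and 222 with doxycycline at 16 h, and 23 and 13 against 900 and 832 at 24 h. In CPM, the means were 0.722 ± 0.010 with water and 9.09 ± 0.603 with doxycycline at 16 h, then 0.758 ± 0.213 and 30.8 ± 0.119 at 24 h (SD, n = 2). The water libraries stayed under 1 CPM at both times and the doxycycline libraries lay at 8.66 CPM or more, with no overlap. The fold changes were 12.5 and 39.8. On the log2 scale they were 3.64 ± 0.19 (SE) at 16 h and 5.31 ± 0.17 at 24 h, ranks 10 and 3 of 17713 genes tested. The later response was the larger by 1.67 ± 0.32 on that scale, rank 74 of all genes by this increase.

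By 16 h, Gadd45g was nearer to its 24 h level than Kcnc1 was, as was Zfp703. Water libraries held 21 and 41 counts and doxycycline libraries 544 and 528 at 16 h, and the numbers were 34 and 33 against 953 and 751 at 24 h. Mean levels went from 1.64 ± 0.872 to 21.3 ± 1.01 CPM and from 1.44 ± 0.142 to 30.2 ± 3.52 CPM. Here the first water pair differed among itself by more than any doxycycline pair, relative to its mean. The log2 fold changes were 3.72 ± 0.24 and 4.39 ± 0.24, rank 9 at both times. The later response was larger by 0.66 ± 0.38.

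Zfp703 started from the highest count of the 3. It had 92 and 101 counts with water and 1224 and 1074 with doxycycline at 16 h, and 108 and 95 against 1796 and 1379 at 24 h. Means were 5.01 ± 0.766 and 45.7 ± 5.41 CPM at 16 h, then 4.35 ± 0.13 and 56.2 ± 7.58 CPM at 24 h. Its log2 fold changes of 3.19 ± 0.16 and 3.69 ± 0.16 ranked 17 and 33 among all genes tested, so other genes lay above it at each time. The later response exceeded the earlier one by 0.50 ± 0.22.

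**Figure D1:**
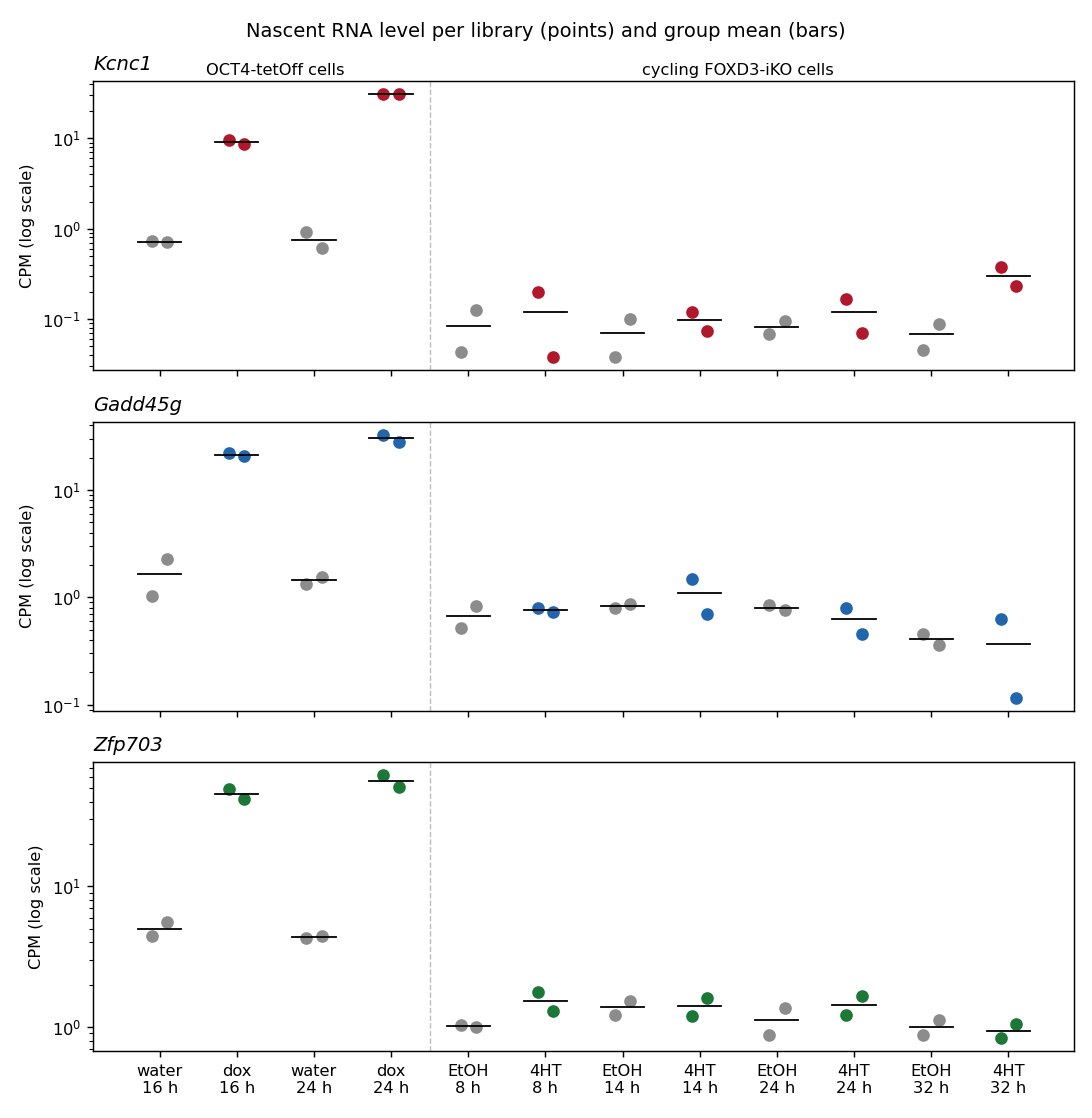
Nascent RNA level of each gene in CPM on a log axis, by group, in OCT4-tetOff cells (left of the dashed line) and cycling FOXD3-iKO cells (right). Points are libraries, grey for water or ethanol and coloured for doxycycline or 4HT, and bars are means. The doxycycline libraries stand above all others for each gene, reaching means of 30.8 CPM for Kcnc1, 30.2 for Gadd45g and 56.2 for Zfp703 at 24 h.

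Per kilobase of counted interval, introns included, the order was different. How evenly reads covered exons and introns was not examined, which limits comparison between genes of unlike length. After 24 h of doxycycline, mean levels were 16.9 CPM per kb for Gadd45g, 13.6 for Zfp703 and 0.729 for Kcnc1. With water at the same time they were 0.806, 1.05 and 0.0180. Kcnc1 therefore had the largest fold change and the lowest level per length of its long, intron-rich interval.

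Of the 17713 genes tested, 16.9% were called at 16 h (7.94% higher, 8.91% lower) and 36.9% at 24 h (18.1% higher, 18.7% lower), at an edgeR adjusted p under 0.05. Scaling by total counts alone moved the median change of all genes at 16 h to 0.15, and 70.1% of the calls were then higher in place of 47.1%. Without any 1 of the 4 libraries of 16 h the fit called 1332 to 1429 genes in place of 2986, and without the first water library of 24 h the number was 3977 in place of 6531. Among called genes with an average of at least 1 on the log2 CPM scale, an official symbol and both doxycycline libraries above both water libraries, Krt7, a trophectoderm keratin, had the largest increase at 16 h outside the 3 genes, at 3.32 ± 0.35 (edgeR adjusted p = 0.00024), between Kcnc1 and Zfp703. The place of the 3 genes themselves follows from their selection. At 24 h, several such genes lay between Gadd45g and Zfp703, among them Rorb, a nuclear receptor (4.21 ± 0.33), Peg10, an imprinted retrotransposon-derived gene of the placenta (4.15 ± 0.15), and Gata6, a primitive endoderm factor (4.10 ± 0.16), with edgeR adjusted p from 5.8e-07 to 1.9e-05.

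**Figure D2:**
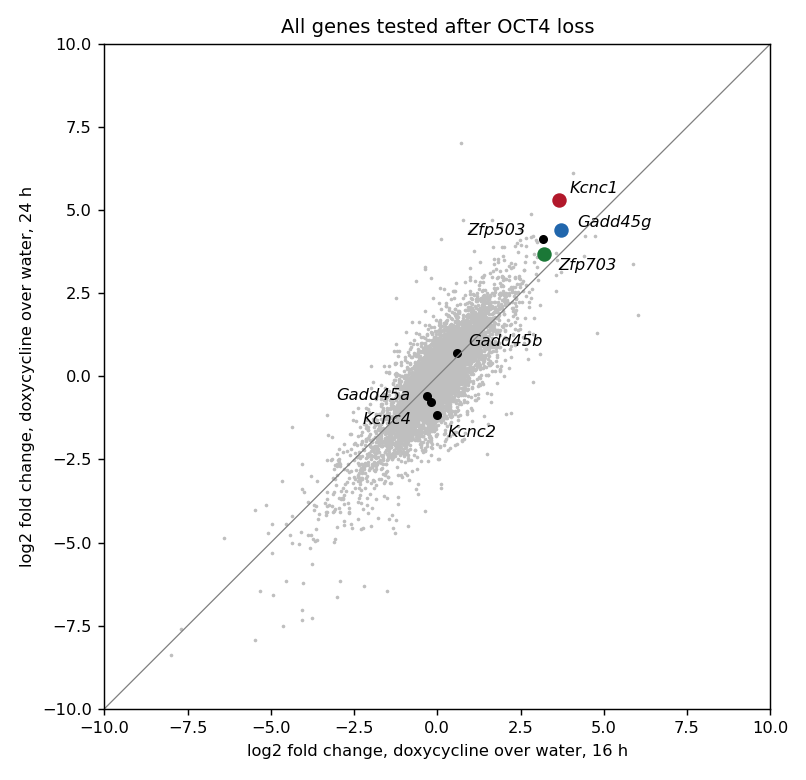
Log2 fold change of doxycycline over water at 24 h (y axis) against that at 16 h (x axis) for all 17713 genes tested (grey), with the diagonal of equal change. The 3 genes (coloured) lie at the upper right with Zfp503, whereas Gadd45a, Gadd45b, Kcnc2 and Kcnc4 (black) lie between -1.16 and 0.69 at 24 h.

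Closest relatives did not share one pattern. Zfp503, the other NET family gene, had 7 and 10 counts with water and 106 and 95 with doxycycline at 16 h, then 7 and 14 against 278 and 178 at 24 h. It rose by 3.17 ± 0.39 and 4.14 ± 0.34 in log2 units (edgeR adjusted p = 0.00054 and 2.4e-05). Both NET genes were thus higher in every doxycycline library than in any water library. Gadd45b rose by 0.59 ± 0.14 and 0.69 ± 0.14 (adjusted p = 0.019 and 0.0047; 0.058 at 16 h without the ribosomal RNA genes in the library size), while Gadd45a fell by 0.60 ± 0.15 at 24 h (adjusted p = 0.012) and was not called at 16 h (-0.31 ± 0.14, adjusted p = 0.19). Both started far above Gadd45g, at 12.6 CPM for Gadd45a and 17.7 for Gadd45b with water at 24 h. Among other Kv3 subunit genes, Kcnc2 fell by 1.16 ± 0.34 at 24 h (adjusted p = 0.024), and Kcnc4 was not called (-0.77 ± 0.29, adjusted p = 0.063). Kcnc2 counts were low, 28 and 24 with water against 19 and 9 with doxycycline at 24 h. At 16 h they were 17 and 14 against 22 and 18.

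The wider gene lists held called genes in both directions, and their counts are to be read beside the shares over all genes, 7.94% higher and 8.91% lower at 16 h and 18.1% and 18.7% at 24 h. Among 32 other voltage-gated potassium channel genes tested, 4 rose and 5 fell at 16 h and 7 rose and 8 fell at 24 h, with a median log2 change of -0.14 at 24 h beside -0.01 over all genes. With total counts alone, 8 rose and 5 fell at 16 h. The transient-current subunit Kcnd2 rose by 1.15 ± 0.23 at 24 h (edgeR adjusted p = 0.004) and its relative Kcnd3 fell by 2.71 ± 0.33 (adjusted p = 0.00029). Of 20 GADD45 proteins, partners and stress kinases, 3 rose and 4 fell at 16 h, and 4 rose and 8 fell at 24 h (median -0.28). At 24 h, 5 rose and 10 fell without the ribosomal RNA genes in the library size, and 6 rose and 7 fell with total counts alone. Cdkn1a, the p21 inhibitor that GADD45 proteins bind, rose by 1.04 ± 0.12 and 1.33 ± 0.12 (adjusted p = 0.00036 and 3.9e-05), and Trp53 fell by 0.57 ± 0.10 and 0.83 ± 0.10 (adjusted p = 0.0049 and 0.0003). Pcna, another GADD45 partner, fell by 1.12 ± 0.19 at 24 h (adjusted p = 0.0021).

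For 19 cell cycle inhibitors without Gadd45g, 4 rose and none fell at 16 h, and 7 rose and 3 fell at 24 h (median 0.28). With total counts alone, 8 rose at 16 h. Btg1, an antiproliferative gene, rose by 0.85 ± 0.14 (edgeR adjusted p = 0.0019) and Cdkn2b, the p15 inhibitor, by 1.09 ± 0.17 (adjusted p = 0.0013) at 24 h. The NET corepressor list had 12 other genes tested, of which 1 rose and 1 fell at 16 h, and 2 rose and 1 fell at 24 h. At 24 h the number that fell was 4 without the ribosomal RNA genes in the library size and 0 with total counts alone. Zfp503 was among those that rose, and the histone deacetylase gene Hdac2 fell by 0.35 ± 0.09 at 24 h (edgeR adjusted p = 0.012). The Hdac2 call was lost with total counts alone (-0.29, adjusted p = 0.10).

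Markers of cell type moved beside the 3 genes. Over all genes tested, 7.94% were higher and 8.91% lower at 16 h, and 18.1% and 18.7% at 24 h. Of 7 ESC genes tested, 6 fell at 16 h and 7 at 24 h, and their summed level went from 2693 to 2708 CPM with water to 956 to 1057 CPM with doxycycline at 24 h. The 7 and the sum include Pou5f1, the targeted gene, whose fall is the treatment itself. Its mean was 186 CPM with water and 52.5 CPM with doxycycline at 24 h. Sox2 was at 0 counts in every library, and its interval lies wholly inside that of Sox2ot, a condition that also held for the neuronal gene Tubb3 inside Gm20388. Trophectoderm markers had 5 of 11 higher and 1 lower at 24 h (sum 38.9 to 45.5 CPM against 83.5 to 100.2), among them Gata3 at 2.32 ± 0.11 (edgeR adjusted p = 1.6e-06). Of 7 primitive endoderm markers, 5 rose and 1, Lama1, fell, and the sum was 173 to 203 CPM with water and 154 to 176 with doxycycline. Neuronal markers, listed because Kcnc1 is known from neurons, had 0 of 5 higher and 2 lower, with a sum of 123 to 126 CPM against 23.4 to 24.2. Stmn2 made up most of it, at 115 against 17.8 CPM, Tubb3 stood at 0, and Pvalb was at 0 with doxycycline. Fibroblast markers summed to 15.6 to 16.2 CPM with water and 26.2 to 28.7 with doxycycline, with Thy1 and Pdgfrb higher and Dcn and Lum at 0 in all libraries of 24 h. Fewer cells of a type and less RNA per cell cannot be told apart in such samples, and the part of these markers in the values of the 3 genes was not tested.

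Nearby genes were compared next, within 200 kb of each interval. All 4 named neighbours of Kcnc1 rose at 24 h, and 3 of them at 16 h, beside backgrounds of 18.1% and 7.94% higher over all genes. Myod1, which is in both counts, passed the low-count filter only through its doxycycline libraries. A rise was the only call open to it, so its calls cannot be read beside those shares. Myod1, the muscle-determining factor, lies 17.4 kb to the left, and had 1 and 2 counts with water and 17 and 12 with doxycycline at 16 h, then 1 and 0 against 15 and 12 at 24 h. Its log2 changes of 2.82 ± 0.62 and 4.19 ± 0.77 (edgeR adjusted p = 0.013 and 0.0028) thus rest on at most 17 counts a library. Otog, an inner-ear glycoprotein gene at 85.1 kb, went from 24 and 22 counts to 92 and 95 at 16 h, and from 51 and 35 to 135 and 117 at 24 h. It rose by 1.64 ± 0.20 and 1.28 ± 0.17 (adjusted p = 0.00053 and 0.00051). Ush1c, a scaffold of sensory cells and gut at 158 kb, went from 4 and 3 counts to 11 and 18 at 16 h, and from 14 and 14 to 53 and 43 at 24 h. It rose by 1.65 ± 0.47 and 1.50 ± 0.28 (adjusted p = 0.041 and 0.003), so the call at 16 h rests on few counts. Without the ribosomal RNA genes in the library size, the adjusted p of Ush1c at 16 h was 0.052. Sergef, on the other side at 4.45 kb, changed by 0.29 ± 0.20 at 16 h (adjusted p = 0.37) and rose by 0.58 ± 0.19 at 24 h (adjusted p = 0.038).

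Around Gadd45g, none of 3 named neighbours was called at 16 h and 1 at 24 h, Sema4d, a semaphorin gene at 52.9 kb that rose by 0.46 ± 0.15 (edgeR adjusted p = 0.039). Around Zfp703, 5 of 6 named neighbours could be tested. Rab11fip1, a recycling endosome gene at 157 kb, rose by 0.49 ± 0.11 and 0.67 ± 0.11 (adjusted p = 0.015 and 0.0014), and the adhesion receptor gene Adgra2 at 104 kb fell by 0.95 ± 0.15 at 24 h (adjusted p = 0.0014). The provisional gene 2310008N11Rik, 92.9 kb to the left, rose by 2.24 ± 0.21 and 2.07 ± 0.19 (adjusted p = 0.00012 and 4.3e-05); it was singled out after its values were seen. Among the named neighbours, the fitted change of Myod1 came nearest to that of its member, with a wide error.

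**Figure D3:**
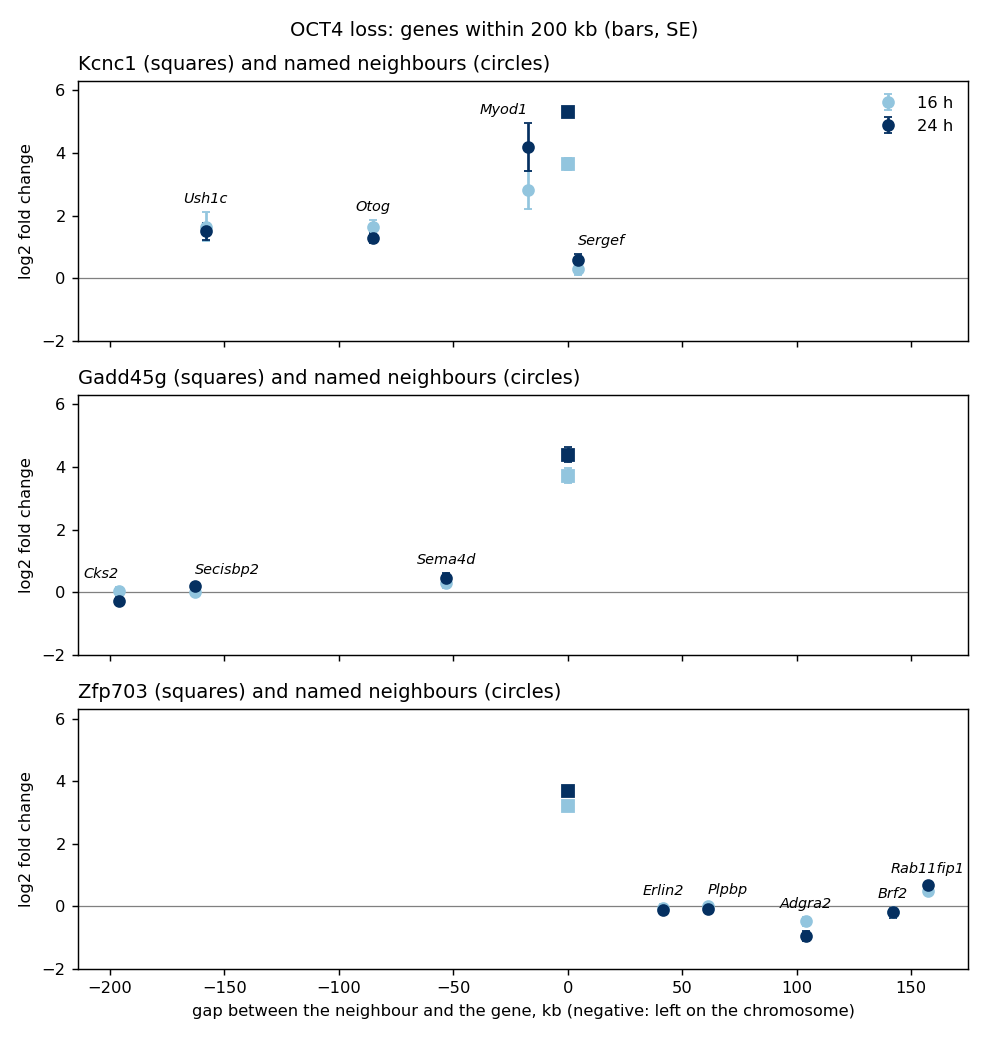
Log2 fold change of doxycycline over water (y axis, bars SE) for each of the 3 genes (squares at 0) and their tested, officially named neighbours (circles) by the gap between the intervals in kb (x axis), at 16 h (light) and 24 h (dark). Kcnc1 has 4 neighbours above 0 at both times, whereas those of Gadd45g and Zfp703 lie between -0.95 and 0.67.

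Loss of FOXD3 in cycling cells gave no call for any of the 3 genes at 8, 14, 24 or 32 h in edgeR. DESeq2 gave none either, but it returned no adjusted p for Kcnc1 at 24 and 32 h (log2 changes 0.55 and 2.16). Over all 18707 genes tested, 0.0107% were called at 8 h, 0.016% at 14 h, 0.481% at 24 h and 9.47% at 32 h. Of the calls at 32 h, 51.6% were higher, or 86.7% with total counts alone, which moved the median of all genes from -0.05 to 0.12. The 32 h calls numbered 1771, or 4494 without the first ethanol library, and 604 and 572 without the first and the second 4HT library. The ribosomal RNA genes took 14.3 and 28% of the 2 ethanol libraries of 32 h and 13.9 and 12.5% of the 4HT libraries, and their part in these counts was not tested. Foxd3 itself was lower with 4HT at each time, by 1.33 to 1.63 on the log2 scale, and past the threshold at 24 h and 32 h (edgeR adjusted p = 0.019 and 0.0029). At an unadjusted p under 0.05, 1 of the 3 genes remained, Kcnc1 at 32 h. Of the 18707 genes tested, which leave out Kcnc1 for its low counts, 4549 were under it at that time.

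Kcnc1 was too rare in these libraries to pass the low-count filter, so its values come from the fit without that filter. Ethanol libraries held 1 to 3 counts each, and 4HT libraries 1 to 5 at 8, 14 and 24 h. At 32 h there were 9 and 6 counts with 4HT and 1 and 2 with ethanol, and the pairs did not overlap. Summed over replicates, 15 against 3 counts gave a ratio of 4.98 per library total with a 95% exact binomial counting interval of 1.41 to 26.8, which covers counting error only. The fitted change was 2.11 ± 0.98 (edgeR adjusted p = 0.25). At 8, 14 and 24 h the summed counts of 6 against 4, 5 against 4 and 6 against 4 gave ratios from 1.25 to 1.48, with intervals that span 1, so a difference was not detectable at this depth.

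Gadd45g had 8 to 26 counts in ethanol libraries and 3 to 37 in 4HT libraries. At 32 h the ethanol pair had 10 and 8 counts and the 4HT pair 15 and 3, one above and one below, and the log2 change was -0.17 ± 0.66 (edgeR adjusted p = 0.92). At 24 h it was -0.40 ± 0.49 (adjusted p = 0.94), from 25 and 16 counts with ethanol and 19 and 13 with 4HT. Zfp703 had 19 to 46 counts with ethanol and 20 to 48 with 4HT. Its largest change was at 8 h, 0.59 ± 0.29 (adjusted p = 1.0), from 24 and 24 to 44 and 34 counts, and at 32 h it was -0.08 ± 0.32 (adjusted p = 0.92) with overlapping pairs. Zfp503 too was not called at 32 h (-0.04, adjusted p = 0.97).

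The difference between the 2 losses at 24 h was described in a joint fit, with no test since one side chose the genes. The doxycycline response exceeded the 4HT response by 4.81 ± 0.99 (SE) for Kcnc1, 4.79 ± 0.40 for Gadd45g and 3.28 ± 0.34 for Zfp703 on the log2 scale. The wide error of Kcnc1 comes with its 2 to 4 counts in FOXD3-iKO libraries of that time. Foxd3 itself fell with doxycycline, by 1.93 ± 0.17 at 16 h, and at 24 h it fell by 3.12 ± 0.20 (edgeR adjusted p = 8.3e-05 and 5.6e-06).

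**Figure D4:**
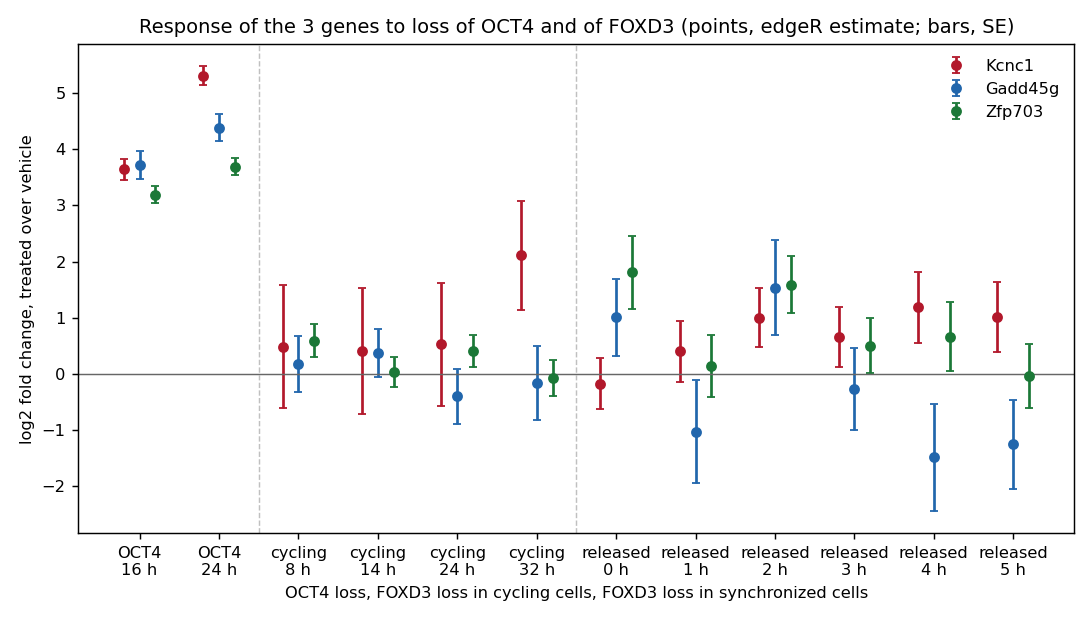
Log2 fold change of treated over vehicle (y axis) for the 3 genes in 12 comparisons (x axis): doxycycline in OCT4-tetOff cells, then 4HT in cycling and in synchronized FOXD3-iKO cells. Points are edgeR estimates and bars are SE; the doxycycline values run from 3.19 to 5.31, and the 4HT values from -1.49 to 2.11.

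Some neighbours of Kcnc1 and Zfp703 were called at 32 h of FOXD3 loss, where 9.47% of all genes were called and 4.88% were called higher. Ush1c had 27 and 27 counts with ethanol and 65 and 93 with 4HT at 32 h and rose by 1.37 on the log2 scale (edgeR adjusted p = 0.0014). Otog went from 9 and 13 to 34 and 33 counts and rose by 1.42 (adjusted p = 0.027). Near Zfp703, Plpbp rose by 0.37 (adjusted p = 0.020) and the provisional 2310008N11Rik by 1.59 (adjusted p = 0.016). The other named neighbours of Zfp703 tested there, Erlin2, Adgra2, Brf2 and Rab11fip1, were not called (adjusted p = 0.11 to 0.42). None of the 3 named neighbours of Gadd45g was called. Sergef was not called (0.15, adjusted p = 0.64), and Myod1 had at most 1 count in any cycling library. The trophectoderm gene Krt7 (2.31, adjusted p = 0.038) and the primitive endoderm gene Gata6 (1.08, adjusted p = 0.00038), which ranked beside the 3 genes after OCT4 loss, rose at 32 h as well. Without the ribosomal RNA genes in the library size, the Krt7 call was lost (adjusted p = 0.054).

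Whether the response changed over the 4 times after 4HT was tested directly, and none of the 3 genes was called (edgeR adjusted p = 0.89 to 1.0, with 0.454% of genes called and none of the 3 at an unadjusted p under 0.05). Levels with ethanol alone did not change past the threshold over culture time either (adjusted p = 0.39 to 1.0), against 27.6% of genes that did. Time in culture and whatever else differed between the collections cannot be told apart there.

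Baseline levels differed between the lines. Relative to all counts, Kcnc1 in water-treated OCT4-tetOff cells stood 9.63-fold above its mean in ethanol-treated cycling FOXD3-iKO cells, Zfp703 3.99-fold and Gadd45g 2.17-fold, and without the ribosomal RNA genes in the total the ratios were 10.3, 4.35 and 2.37. Kcnc1 ran from 0.611 to 0.966 CPM of total counts in the 4 water libraries and from 0.0415 to 0.122 in the 8 ethanol libraries, with no overlap. Pou5f1 averaged 205 CPM with water and 90.8 CPM with ethanol. Line, solvent and count table change together here and cannot be told apart, and since doxycycline folds are taken over the water level, no test was made.

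In synchronized FOXD3-iKO cells, Zfp703 and Kcnc1 were higher with 4HT in a test over the 6 release times. Zfp703 rose by 0.75 ± 0.25 in log2 units (edgeR adjusted p = 0.022) and Kcnc1 by 0.58 ± 0.22 (adjusted p = 0.044), while Gadd45g changed by -0.13 ± 0.37 (adjusted p = 0.81). The background is high, since 37% of genes were called in this test and 18.6% were higher, so 2 of 3 calls is to be read beside that share. The direction of all calls depended on scaling. With TMM factors 50.3% of the called genes were higher, with total counts alone 9.7%, and the median of all genes moved from -0.01 to -0.21. Relative to those medians, Zfp703 and Kcnc1 stayed above, at 0.54 and 0.38 with total counts alone, but neither was called (adjusted p = 0.059 and 0.20). The call for Kcnc1 was lost in 21 of 31 other settings and that for Zfp703 in 3, among them the fit without the first 4HT library of 2 h (0.65, adjusted p = 0.051).

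Zfp703 counts were low, 3 to 20 in ethanol libraries and 4 to 21 in 4HT libraries. At 0 h it had 3 and 5 counts with ethanol and 14 and 8 with 4HT, or 0.324 and 0.308 against 1.19 and 1.03 CPM. At 2 h the counts were 7 and 12 against 21 and 14, or 0.465 and 0.628 against 1.89 and 1.45 CPM. Both 4HT libraries stood above both ethanol libraries at these 2 times and at no other, and at 5 h the means were 0.836 with ethanol and 0.755 with 4HT. Kcnc1 had 2 to 18 counts with ethanol and 4 to 10 with 4HT. Both of its 4HT libraries lay above both ethanol libraries at 2, 3, 4 and 5 h, with 4HT means from 0.556 to 0.782 CPM and ethanol means from 0.241 to 0.390. At 0 h the Kcnc1 pairs overlapped, at 0.972 and 1.11 CPM with ethanol and 0.765 and 1.16 with 4HT.

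Gadd45g showed no common direction. At 0 h its 4HT libraries (10 and 7 counts) had more than the ethanol ones (3 and 8) per library size, with means of 0.875 and 0.409 CPM. At 1, 4 and 5 h both 4HT libraries were below both ethanol libraries, with 2 and 4 against 10 and 6 counts at 5 h. No gene of the 3 was called at any single time, where edgeR called 0.445% of genes at 0 h, 2.4% at 1 h, 0.789% at 2 h, 3.49% at 3 h, 0.519% at 4 h and 2.09% at 5 h. At an unadjusted p under 0.05 stood Zfp703 at 0 h (1.81 ± 0.66, adjusted p = 0.18), as well as at 2 h (1.59 ± 0.51, adjusted p = 0.13). Over all 17739 genes tested, 3146 stood there at 0 h and 3107 at 2 h.

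**Figure D5:**
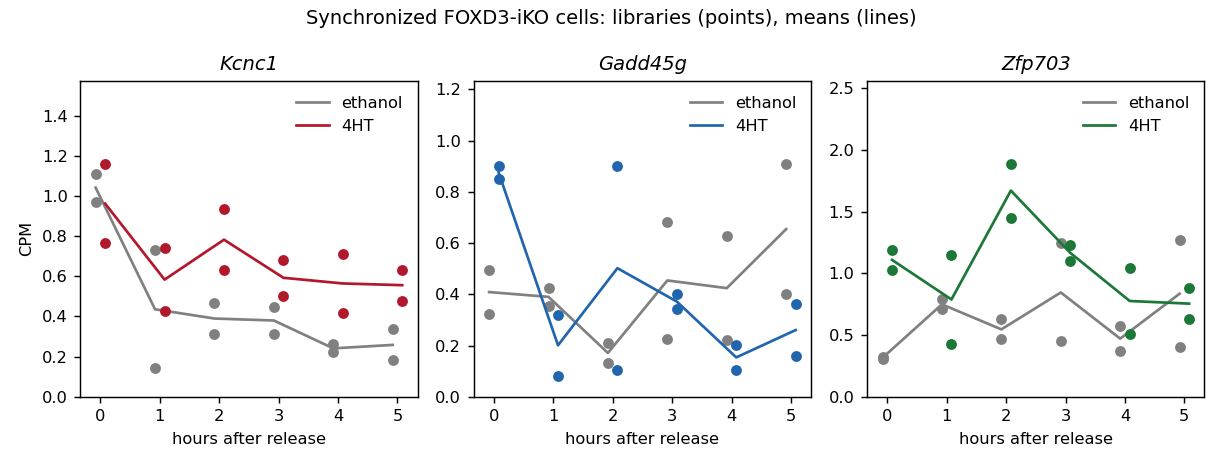
CPM of each gene (y axis) by hours after release from the thymidine block (x axis) in FOXD3-iKO cells with ethanol (grey) or 4HT (coloured). Points are libraries and lines join means; Kcnc1 means lie above ethanol from 1 h on, and Gadd45g lines cross.

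Release itself gave no call for the 3 genes in either arm. The Kcnc1 level with ethanol was 1.04 ± 0.0977 CPM at 0 h and 0.241 ± 0.0288 at 4 h (SD, n = 2), and the joint test over times missed the threshold (edgeR adjusted p = 0.055, with 19.4% of genes called). With 4HT it gave adjusted p = 0.79, and 15.4% of genes were called. The 2 arms were not tested against each other for this course. At an unadjusted p under 0.05, Kcnc1 in the ethanol arm was alone among the 3 genes and both arms. Of 17739 genes tested, 6488 were under it in the ethanol arm and 5507 in the 4HT arm.

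Arrested cells at 0 h were compared with cycling cells of 24 h, both with ethanol, a comparison added after the levels had been seen. Kcnc1 had 9 and 18 counts in arrested libraries and 2 and 2 in cycling ones, although the arrested libraries are smaller, and was higher by 3.50 ± 0.50 on the log2 scale (edgeR adjusted p = 0.00025). Zfp703 went the other way, with 3 and 5 against 26 and 29 counts (-1.92 ± 0.48, adjusted p = 0.0058). Gadd45g followed it at -1.04 ± 0.41 (adjusted p = 0.048), a call that was lost in 9 of 10 other settings. Of all genes, 66.2% were called (47.3% of them higher, or 68.9% with total counts alone, where the median moved to 0.34), and the block, the length of the 4SU pulse and the count table differ together and cannot be told apart.

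Ordered by mean CPM over all 24 groups, the doxycycline groups of 24 and 16 h came first and second for each gene. For Gadd45g and Zfp703 the water groups followed, at 1.64 and 1.44 and at 5.01 and 4.35 CPM, and the order within each water pair was within its spread. Gadd45g with water at 16 h (1.02 and 2.25 CPM) overlapped the next group, 4HT at 14 h (1.49 and 0.695 CPM). For Kcnc1 the next places were held by synchronized cells, ethanol and 4HT at 0 h and 4HT at 2 h, at 1.04, 0.962 and 0.782 CPM. The water groups followed at 0.758 and 0.722 CPM, and the libraries of each of these groups overlapped those of the next. This order depends on scaling, since each table was scaled on its own: per total counts, water at 24 h (0.789 CPM) stood above 4HT at 2 h (0.710 CPM). The lowest groups of Kcnc1 were the ethanol groups of cycling cells, 0.0676 to 0.0840 CPM, which did not differ among themselves beyond their spread.

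Genes with the most similar course over the 12 treatment comparisons were found by the root mean square difference of log2 changes, among 11684 genes. The doxycycline values that chose the 3 genes are part of this measure, so it is a description only. For Kcnc1 these included Lypd6b (0.509), Gata6 (0.525), Peg10 (0.539) and Rab3il1 (0.744), where the median over all genes was 1.92. For Gadd45g the nearest was Zfp703 (0.700), then Zfp503 (0.730), Rbm24 (0.784) and Ecel1 (0.785). Zfp703 lay closest to Rab3il1 (0.512) and Peg10 (0.512), then Scube1 (0.610), Cidea (0.668) and Gata6 (0.697). Kcnc1 and Gadd45g were 1.04 apart.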

How the data were processed

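The authors deposited 3 tables of whole-number read counts per gene (OCT4-tetOff, cycling FOXD3-iKO, synchronized FOXD3-iKO); the submitters' processing notes name STAR, featureCounts and mm10, and the strand setting was not found in the labels. In all 54752 genes the deposited length equals the interval from start to end. Of the identifiers, 54723 matched the reference table without their version and 53861 with it. Every sample column matched 1 label.

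In R 4.3.3, edgeR 4.0.16 fitted each table on its own by its quasi-likelihood method, with 1 mean per group, TMM scaling and filterByExpr at a minimum count of 10. Called genes have an adjusted p (Benjamini-Hochberg, over all genes tested) under 0.05. Kcnc1 did not pass the filter in the cycling table and its values there come from a fit without it. SE comes from the fold change and the F statistic (log2 value over root F). The joint fits of 24 h and of arrested against cycling cells combined 2 tables. The step was tested on simulated data with known changes. Precision is set by depth: 3 counts, the limit that a count of 0 allows, equal 0.115 to 0.142 CPM in OCT4-tetOff, 0.0987 to 0.137 in cycling and 0.167 to 0.377 in synchronized libraries, counting error only.

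The 3 genes and all lists were chosen with earlier results of these data known. Other genes were named by rule: the 12 with the largest increase at each time after doxycycline, from among called genes with average log2 CPM of at least 1, an official symbol and separated libraries; the 5 most like each gene; neighbours within 200 kb; the close relatives; and called list members by smallest p. A few genes that the rule names are not reported here. Alternatives were RLE factors, total counts with and without Gm26917 and Gm42418, no filter, DESeq2 1.42.0, only the compared groups, a replicate block, and each library left out. Promoter windows come from RefSeq (GRCm38.p6). Zfp703 is not in that table.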

Additional observations from a re-analysis of the deposited data

How the results depend on the processing

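The direction of the 3 genes after OCT4 loss is fixed by their selection. The change of Kcnc1 at 16 h was 3.64 as reported, 3.80 with total counts alone and 3.51 as a difference of mean log2 CPM with prior count 2. For FOXD3 loss in cycling cells, no alternative gave a call for the 3 genes. DESeq2 returned no adjusted p for Kcnc1 at 24 and 32 h, so no call was possible there. Zfp703 changed sign at 14 h with total counts alone (-0.082) or without Gm26917 and Gm42418 in the library size (-0.018), a scaling chosen after seeing the data, and at 32 h with total counts alone (0.088). Over single libraries left out, Kcnc1 ran from -1.02 to 1.38 at 8 h, -0.072 to 1.23 at 14 h and -0.15 to 1.02 at 24 h. Gadd45g ran from -0.13 to 0.56 at 8 h, -0.29 to 0.83 at 14 h and -1.76 to 0.62 at 32 h, and Zfp703 from -0.20 to 0.22 at 14 h and -0.25 to 0.13 at 32 h.

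Counts of called genes moved more. Without a filter there were 15 at 14 h and 285 at 24 h, and DESeq2 gave 7 and 168, where the reported numbers were 3 and 90. With only the compared groups in the fit, 69 were called at 8 h, 271 at 24 h and 199 at 32 h after 4HT, and 6576 and 4258 at 16 and 24 h after doxycycline. Without the 2 ribosomal RNA genes in the library size there were 0 at 8 h, 45 at 24 h and 1095 at 32 h. With 1 library left out the numbers were 0 at 8 h, 0 to 1 at 14 h, 2 to 17 at 24 h and 572 to 4494 at 32 h after 4HT, and 1332 to 1429 and 3977 to 7807 after doxycycline. The cause was not tested, beyond the smaller number of libraries.

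In synchronized cells, Kcnc1 lost its call with total counts alone (0.38), without a filter (0.56), in DESeq2 (0.62), without the ribosomal RNA genes (0.45) and without any 1 of 17 libraries (range over all 24: 0.49 to 0.72, adjusted p = 0.014 to 0.097). Zfp703 lost it with total counts alone (0.54), without the ribosomal RNA genes (0.58) and without 1 of 24 libraries (range 0.65 to 0.90). Gadd45g ran from -0.42 to 0.026. In arrested against cycling cells, the Gadd45g call was lost with RLE factors (-1.01), total counts (-0.69), no filter (-1.09), the replicate block (-1.05), DESeq2 (-1.05) and each library left out (-1.42 to -0.84). The cause was not tested.

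No label ties equal replicate numbers to a shared culture or day, so the libraries were not treated as paired. The correlation of same-numbered deviations ran from -0.25 to 0.74 over 12 comparisons, highest at 24 h of doxycycline. With a replicate block, 3464 and 7409 genes were called after doxycycline, 2, 2, 62 and 1555 after 4HT at 8, 14, 24 and 32 h and 7178 in synchronized cells, where Kcnc1 was at 0.57 and Zfp703 at 0.72. With crossed numbers, added after seeing the data, 2932 were called at 16 h after doxycycline and 1629 at 32 h after 4HT. Counts of 1 to 9 a library limit what can be read for Kcnc1 in cycling FOXD3-iKO cells.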
